A study of Mus musculus with 17 samples.

Results

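The set described here holds 10 transcription factors that direct dendritic and lymphoid cell fates, Batf3, Id2, Nfil3, Zbtb46, Tcf4, Bach1, Bach2, Spib, Satb1 and Bcl6. It consists of every probe set of the mouse array that the platform annotation gives to exactly 1 of these symbols, 23 of 45037 probe sets and 10 of 17097 named genes. The arrays came from sorted mouse cells in 6 groups, all from mice aged 6 to 10 weeks. Myelo-dendritic progenitors (MDPs), bone marrow cells that can give rise to macrophages and dendritic cells, were sorted on CD117 and the M-CSF receptor after cells bearing lineage markers, Sca1 or CD127 had been gated out. There were 2 pools of MDPs without the VENUS reporter and 3 pools of MDPs with it, both under the genotype label IRF8-deficient. A further 3 pools of MDPs are labelled IRF8 knockout and are called knockout-labelled here, beside 3 pools of wild-type MDPs. The spleens of wild-type mice supplied 3 macrophage pools and 3 granulocyte pools. Both were sorted as CD11b-positive cells lacking CD11c, the macrophages by the presence of the M-CSF receptor and the granulocytes by its absence together with Ly6C. A pool held cells of 5 mice. The sources used here give neither the number of mice in a VENUS pool nor what the reporter allele does to IRF8. Levels are the authors' log2 RMA values, in which 1 unit is a doubling, and the median of an array lay between 4.33 and 4.48, so a level near or under that is called dim.

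IRF8 is a transcription factor needed for monocytes, for type 1 conventional dendritic cells and for plasmacytoid dendritic cells, and its loss favours granulocytes. The factors described here act beside it. TCF4 (E2-2), an E protein, drives plasmacytoid dendritic cell development, and ID2 binds E proteins and blocks them, which favours conventional dendritic cells. BATF3, an AP-1 factor, and NFIL3, a basic leucine zipper factor, are both needed for type 1 conventional dendritic cells, and ZBTB46 is a zinc finger factor known as a mark of conventional dendritic cells. SPIB is an ETS factor of plasmacytoid dendritic cells and B cells, SATB1 a chromatin organiser of T-cell and early lymphoid programmes, and BCL6 a repressor of germinal centre B cells that is also found in myeloid cells. BACH1 and BACH2 are repressors that pair with small MAF proteins at antioxidant and heme-responsive genes, and BACH2 is best known for holding back myeloid genes in lymphoid progenitors and B cells.

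Promoters were found for 9 of the 10 members in the RefSeq table of mouse build GRCm38.p6, all but Tcf4, with 14 promoters in all and each running from 250 bases before a gene's start to 50 bases after it. They are shown for Bach2, whose level fell in both MDP comparisons, for Bcl6, with the largest rises in spleen cells among the members, and for Zbtb46 and Nfil3. Each reads 5′ to 3′ on the gene's own strand, and capitals mark matches to 4 of the 6 motifs searched.
Bach2, chr4:32417185-32417484, plus strand: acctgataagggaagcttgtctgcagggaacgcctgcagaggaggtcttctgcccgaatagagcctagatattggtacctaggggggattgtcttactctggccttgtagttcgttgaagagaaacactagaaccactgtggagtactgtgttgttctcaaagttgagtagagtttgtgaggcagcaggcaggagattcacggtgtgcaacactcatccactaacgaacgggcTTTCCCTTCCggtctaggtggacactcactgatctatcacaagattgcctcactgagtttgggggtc
Bcl6, chr16:23981234-23981533, minus strand: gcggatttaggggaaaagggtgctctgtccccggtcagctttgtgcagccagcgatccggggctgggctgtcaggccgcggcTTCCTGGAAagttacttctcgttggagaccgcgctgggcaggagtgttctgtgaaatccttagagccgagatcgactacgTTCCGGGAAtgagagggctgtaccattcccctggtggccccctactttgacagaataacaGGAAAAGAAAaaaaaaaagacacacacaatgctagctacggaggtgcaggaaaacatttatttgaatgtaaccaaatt
Zbtb46, chr2:181424339-181424638, minus strand: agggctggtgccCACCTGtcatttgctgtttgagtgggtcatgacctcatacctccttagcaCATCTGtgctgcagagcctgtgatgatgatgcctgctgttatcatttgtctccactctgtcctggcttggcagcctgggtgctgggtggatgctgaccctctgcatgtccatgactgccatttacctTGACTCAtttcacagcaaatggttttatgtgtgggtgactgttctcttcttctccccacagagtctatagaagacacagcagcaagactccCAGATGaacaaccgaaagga
Nfil3, chr13:52980990-52981289, minus strand: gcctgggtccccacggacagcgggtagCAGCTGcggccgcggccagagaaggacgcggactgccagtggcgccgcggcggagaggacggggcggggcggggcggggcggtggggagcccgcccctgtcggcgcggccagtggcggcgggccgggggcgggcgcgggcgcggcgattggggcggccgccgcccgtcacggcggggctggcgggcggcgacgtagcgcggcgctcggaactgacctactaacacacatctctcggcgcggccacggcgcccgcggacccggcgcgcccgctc
In Bach2 the capitals mark the ETS-IRF composite element, GGAA followed after any 2 bases by GAAA, which IRF8 binds together with PU.1 or SPIB. It lies on the opposite strand, 17 to 8 bases before the listed start, which is inside the gene and not at its 5′ end. In Bcl6 they mark the same element on the gene's strand, 28 to 19 bases before the start, and 2 matches to the BCL6 motif TTCNNGGAA, 168 to 160 and 88 to 80 bases before it. In Zbtb46 they mark 1 AP-1 motif TGANTCA, 61 to 55 bases before the start, and 3 E-boxes CAGNTG, the motif that E proteins such as TCF4 bind. In Nfil3 they mark 1 E-box, 223 to 218 bases before the start. Both strands were searched, and a single stretch can match on both. Of 32851 promoters of the same length in the table, the ETS-IRF element was present in 2.72%, the AP-1 motif in 7.81%, the BCL6 motif in 4.81% and the E-box in 51.4%. Of the 14 member promoters, 2 held the ETS-IRF element, 1 the AP-1 motif, 2 the BCL6 motif and 6 an E-box. None of the 14 held the interferon response core, GAAA followed after any 2 bases by GAAA, or the NFIL3 motif TTANNTAA, which were present in 3.44% and 6.00% of all promoters. These matches describe letters in a window and are not evidence of binding. Each window shown lies inside its gene rather than at its outermost 5′ end. The gene spans are chr4:32238413-32586109 for Bach2, chr16:23965050-23988866 for Bcl6, chr2:181371009-181493262 for Zbtb46 and chr13:52967209-52982878 for Nfil3. The other Bcl6 promoter in the table, chr16:23988803-23989102, lies at the gene's outermost 5′ end and held none of the 6 motifs.

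Irf8 itself stood at 5.49 and 6.25 in VENUS-negative MDPs, against 10.72, 10.81 and 11.10 in VENUS-positive MDPs. It stood at 10.32, 10.42 and 10.18 in knockout-labelled MDPs, against 10.27, 10.56 and 10.19 in wild-type MDPs. The Irf8 signal was thus far lower in 1 of the 2 IRF8 comparisons and overlapped between groups in the other, and where the probes lie relative to a disrupted part of the gene is not known here. Levels of other genes also set the libraries apart. The mean level of 12 erythroid and megakaryocyte markers was 8.88 to 9.74 in VENUS-negative MDPs and 5.55 to 5.98 in VENUS-positive MDPs, and that of 7 mast cell and basophil markers was 7.79 to 7.88 in VENUS-negative MDPs and 4.61 to 4.80 in VENUS-positive MDPs. Csf1r, the gene of the M-CSF receptor in the sort gate, stood at 5.09 and 4.83 in VENUS-negative MDPs, against 7.63 to 8.05 in VENUS-positive MDPs, while Kit, the CD117 gene of the gate, stood at 8.20 and 8.38 in VENUS-negative MDPs, against 6.62 to 7.40 in VENUS-positive MDPs. Of the wild-type MDP pools, pool 3 had a mean of 10 neutrophil markers of 8.34, against 4.84 and 4.59 in pools 1 and 2, and of 12 erythroid and megakaryocyte markers of 8.30, against 5.82 and 6.34. Neutrophil markers averaged 6.04 to 6.72 in knockout-labelled MDPs, but of the 10 only Mmp8 was called against wild-type MDPs (4.03 higher). In such bulk RNA, fewer cells of a type and less RNA per cell cannot be told apart.

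The VENUS comparison asks how the factors stand in progenitors without the reporter signal. Satb1, Nfil3, Tcf4 and Bach2 fell in VENUS-negative MDPs, while Batf3, Id2, Zbtb46, Bach1, Spib and Bcl6 were not called in either direction. In all, 8 of 23 probe sets and 4 of 10 genes were called, all lower, at an adjusted p under 0.05 (limma, Benjamini-Hochberg over all 45037 probe sets). Over the whole array 4.44% of probe sets were called, 2.2% higher and 2.24% lower. The median difference was -0.60 log2 units over the 23 probe sets and -0.01 over all probe sets. With only the 5 VENUS arrays in the fit, 1 of the 8 member calls remained, that on Satb1 1416008_PM_at (adjusted p = 0.0180). The adjusted p was then 0.0586 for Nfil3, 0.0694 for Bach2 1445460_PM_at, 0.108 for Tcf4 1424089_PM_a_at and up to 0.417 for the others. The spread then came from fewer arrays and from the VENUS groups alone.

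Satb1, the chromatin organiser, had 3 probe sets and all were called. The brightest, 1416008_PM_at, stood at 6.75 and 6.67 in VENUS-negative MDPs, against 8.69, 8.42 and 8.41 in VENUS-positive MDPs. The groups lay far apart with almost no spread between the VENUS-negative pools. The difference was -1.80 ± 0.22 (SE), 3.48-fold lower (limma, adjusted p = 1.98e-04), and it lay between -1.85 and -1.71 and was called in all 5 fits that leave out 1 VENUS pool. The probe set 1416007_PM_at gave 4.81 and 4.16 in VENUS-negative MDPs, against 6.63, 6.30 and 8.05 in VENUS-positive MDPs, and 1436182_PM_at gave 4.08 and 4.59, against 6.66, 6.03 and 5.64. Both were dim in at least 1 VENUS-negative pool and did not overlap. Their differences were -2.51 ± 0.49 (adjusted p = 0.00745) and -1.77 ± 0.34 (adjusted p = 0.00631). The call on 1416007_PM_at was lost without VENUS-negative pool 2 (adjusted p = 0.0812) and that on 1436182_PM_at without VENUS-negative pool 1 (adjusted p = 0.0813).

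Nfil3, with 1 probe set, stood at 3.84 and 5.14 in VENUS-negative MDPs, against 7.28, 6.90 and 7.50 in VENUS-positive MDPs. VENUS-negative pool 1 was dim and both lay below every other array of the study. The difference was -2.73 ± 0.38 log2 units (limma, adjusted p = 5.94e-04), and over the 5 fits that leave out 1 VENUS pool it lay between -3.38 and -2.09 and was called in all 5.

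Tcf4, the E protein of plasmacytoid dendritic cells, had 3 probe sets. The brightest, 1424089_PM_a_at, stood at 6.72 and 7.35 in VENUS-negative MDPs, against 8.37, 8.09 and 8.44 in VENUS-positive MDPs. The groups did not overlap, but unlike the dim Satb1 probe sets the VENUS-negative pools kept a signal well above the array median. The difference was -1.26 ± 0.21, 2.39-fold lower (limma, adjusted p = 0.00201), and -1.57 to -0.94 with 1 VENUS pool left out, called in 5 of 5 fits. The probe set 1434149_PM_at differed by -1.55 ± 0.37 (adjusted p = 0.0293), a call lost without VENUS-positive pool 2 (adjusted p = 0.0809), VENUS-negative pool 1 (0.129) or VENUS-negative pool 2 (0.128). The probe set 1434148_PM_at differed by -0.81 ± 0.26 and was not called (adjusted p = 0.115).

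Bach2, the lymphoid repressor, gave differing results by probe set. The brightest, 1445460_PM_at, stood at 5.72 and 6.36 in VENUS-negative MDPs, against 7.58, 7.35 and 7.71 in VENUS-positive MDPs. All VENUS-positive pools were above every other array of the study for this probe set, and the groups did not overlap. The difference was -1.51 ± 0.23, 2.85-fold lower (limma, adjusted p = 0.00106), and -1.83 to -1.19 with 1 VENUS pool left out, called in 5 of 5 fits. The probe set 1436515_PM_at stood at 3.15 and 3.40 in VENUS-negative MDPs, both dim, against 3.83, 6.59 and 5.32 in VENUS-positive MDPs, which spread widely. Its difference was -1.97 ± 0.50 (adjusted p = 0.0382), and the call was lost without VENUS-positive pool 2 (0.0530) or 3 (0.0855) and without VENUS-negative pool 1 (0.191) or 2 (0.120). The third, 1437667_PM_a_at, differed by -0.52 ± 0.31 and was not called (adjusted p = 0.50).

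Of the members not called, Zbtb46 differed between the VENUS-negative pools. Its probe set 1454884_PM_at stood at 6.71 and 5.10 in VENUS-negative MDPs, against 5.21, 5.33 and 5.11 in VENUS-positive MDPs. The first VENUS-negative pool was the highest array of the study for it and the second the lowest of these 5. The difference was 0.69 ± 0.34 (limma, adjusted p = 0.383), and 1.49 with an adjusted p of 0.00550 when VENUS-negative pool 2 was left out. The other Zbtb46 probe sets differed by 0.33, 0.78 and -0.77. Batf3 differed by 0.03, with a 95% interval of -0.52 to 0.58, and was dim or nearly so in both groups. Id2, the E protein inhibitor, differed by -0.60, -0.30 and -0.19 over its 3 probe sets, Bach1 by -0.07 and -0.74, Bcl6 by -0.33 and -0.17, and Spib by 0.16.

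**Figure D1:**
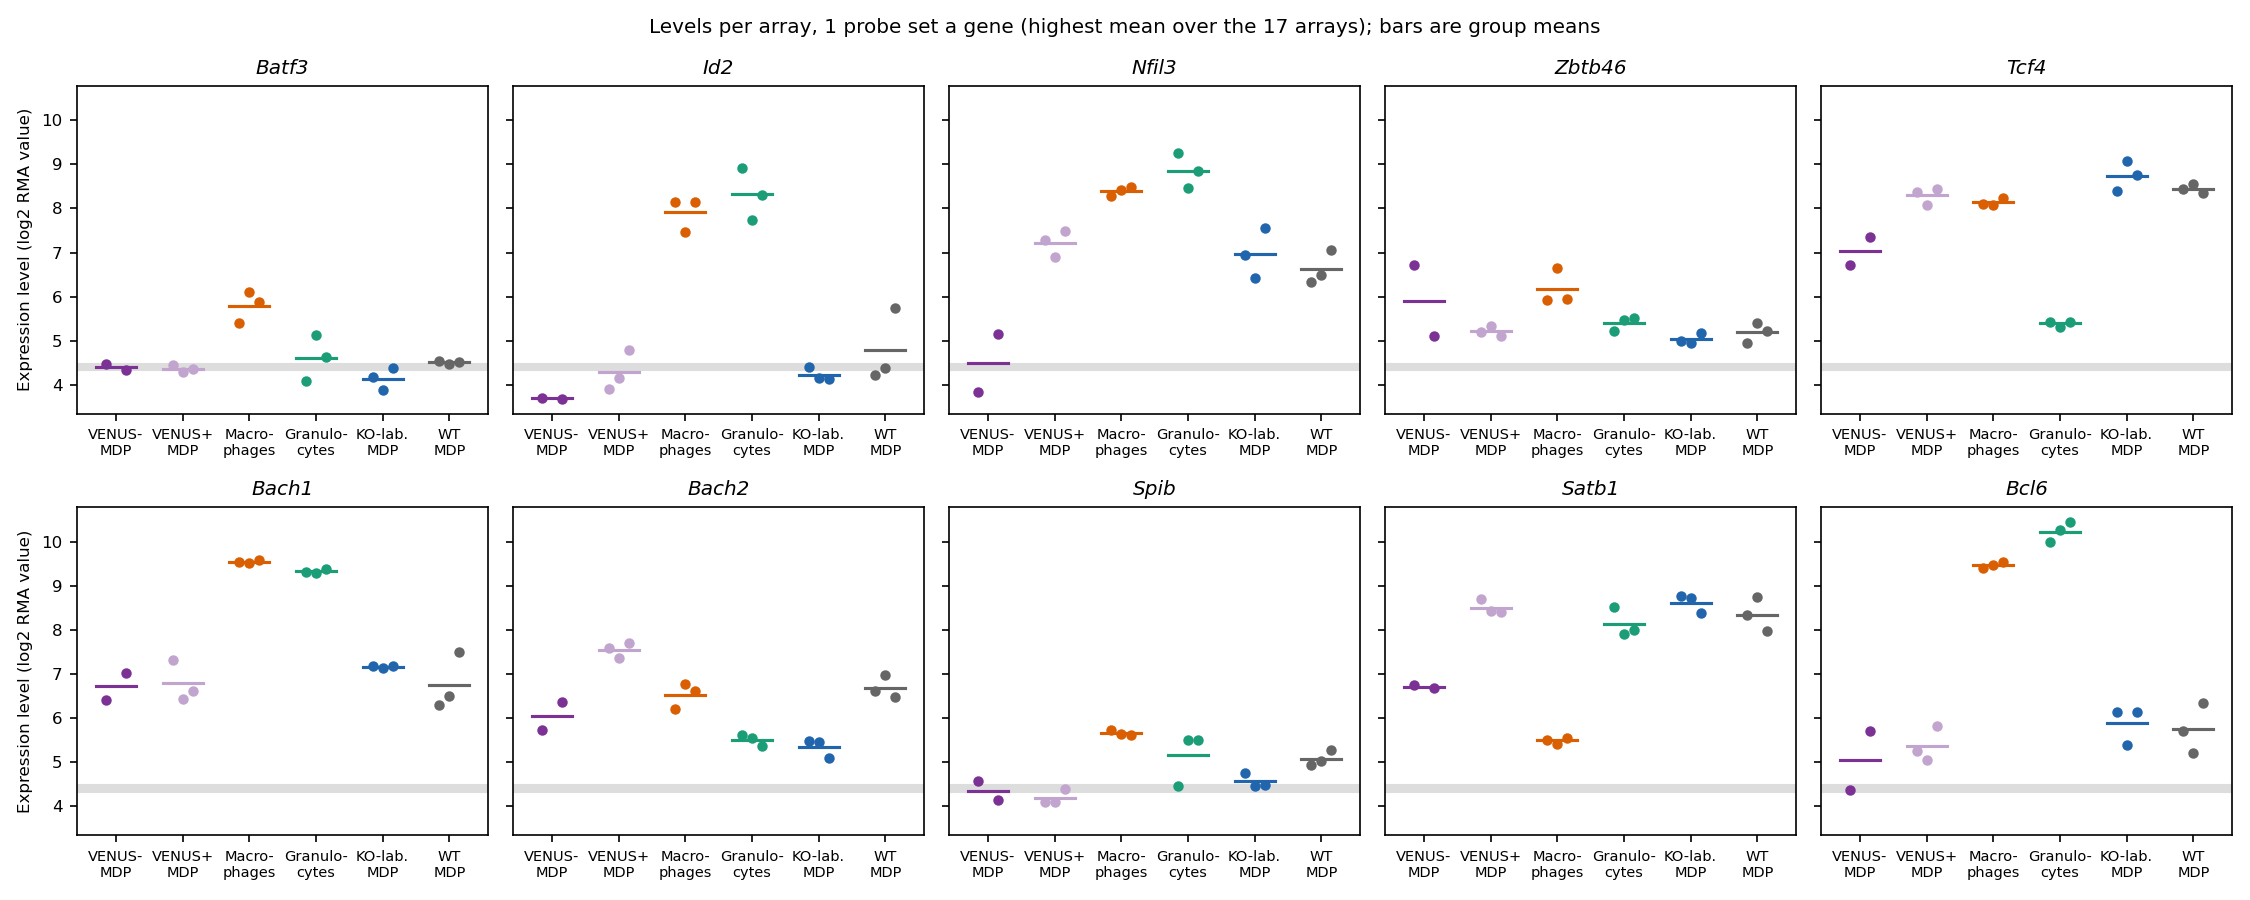
Log2 RMA level of the brightest probe set of each of the 10 members (vertical axes) in every array, with groups along the horizontal axes. Points are pools and bars are group means, and the grey band is the range of the array medians, 4.33 to 4.48. Satb1 is low in macrophages and VENUS-negative MDPs, Tcf4 is lowest in granulocytes, and Id2, Bach1 and Bcl6 are high in both spleen groups.

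The partner and lineage genes were read with 1 probe set a gene, the one with the highest mean, and 5.4% of all 17097 genes were called in the VENUS comparison. None of the 5 E and ID proteins and none of the 4 measured SATB1 partners were called, with median differences of 0.15 and -0.02. Of 17 small MAF partners and heme or oxidative stress genes of the BACH factors, 4 rose in VENUS-negative MDPs and 0 fell, with a median of 0.18 against -0.01 over all genes. The risers were Blvrb, which reduces biliverdin (2.79 ± 0.63, adjusted p = 0.0187), Gclm, of glutathione synthesis (2.60 ± 0.46, adjusted p = 0.00413), Nqo1, a quinone reductase (1.63 ± 0.17, adjusted p = 3.82e-05), and Nfe2, an erythroid and megakaryocyte factor (1.41 ± 0.28, adjusted p = 0.00938). The erythroid and megakaryocyte markers given above were higher in the same pools, and their part in these differences was not tested. Among genes of dendritic cells in general, 3 of 11 fell: Flt3, the growth factor receptor of dendritic cell progenitors (-3.47), Kmo, of tryptophan metabolism (-2.61), and Itgax, which encodes CD11c (-1.46). Klf4 (-4.50) and Sirpa (-2.21) fell among 9 genes of type 2 conventional dendritic cells, Btla (-3.33) among 11 of type 1, Atp1b1 (-1.57) among 14 of plasmacytoid dendritic cells, Cd79b (-1.44) among 12 B-lineage genes and Notch1 (-1.42) among 10 T-lineage genes, and no gene of these lists rose. Spi1, the gene of PU.1, fell by 1.47 on the log2 scale, the only called gene among 7 ETS partners of SPIB. Among 7 BATF3 partners Irf8 alone was called (-5.01), and among 6 measured BCL6 corepressors and targets Cdkn1a alone (-1.47), lower in both cases.

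The knockout comparison asks the same of MDPs labelled IRF8 knockout against wild-type MDPs. Bach2 fell in the knockout-labelled pools and was the only member called, with 1 of 23 probe sets (4.35%). Over the whole array 0.575% of probe sets were called, 0.266% higher and 0.309% lower, and 3 member probe sets had an unadjusted p under 0.05. The median difference was -0.04 log2 units over the 23 probe sets and 0.01 over all probe sets.

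The Bach2 probe set 1445460_PM_at stood at 5.49, 5.46 and 5.09 in knockout-labelled MDPs, against 6.61, 6.97 and 6.47 in wild-type MDPs. Every knockout-labelled pool was about 1 unit or more below every wild-type pool. The difference was -1.34 ± 0.20, 2.53-fold lower, with a 95% interval of -1.77 to -0.90 (limma, adjusted p = 0.00562). It was called in all 6 fits that leave out 1 pool (-1.45 to -1.19, adjusted p = 0.00854 to 0.0310), wild-type pool 3 included. With only these 6 arrays in the fit the adjusted p was 0.0931. The spread then came from fewer arrays and from the compared groups alone. The Bach2 probe set 1436515_PM_at was dim in knockout-labelled MDPs, at 3.74, 3.70 and 3.39. In wild-type MDPs it stood above the array medians, at 4.99, 4.80 and 4.80. The groups did not overlap, and the difference of -1.26 ± 0.45 was not called (adjusted p = 0.383). The probe set 1437667_PM_a_at differed by -0.22 (adjusted p = 0.966).

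Spib, the ETS factor of plasmacytoid dendritic cells, stood at 4.75, 4.46 and 4.49 in knockout-labelled MDPs, against 4.94, 5.02 and 5.27 in wild-type MDPs. The groups did not overlap, at levels close to the array median. The difference of -0.51 ± 0.23 was not called (limma, adjusted p = 0.612). The 3 Satb1 probe sets differed by 0.28, 0.74 and 0.50, with 95% intervals of -0.15 to 0.70, -0.19 to 1.67 and -0.14 to 1.14. Nfil3 differed by 0.34 (-0.39 to 1.08), and the 3 Tcf4 probe sets by 0.30, 0.24 and -0.07. None of these passed the test, and for Satb1 1416008_PM_at the interval leaves out a fall of the size seen in VENUS-negative MDPs. Counting all members, 1 probe set had every knockout-labelled pool above every wild-type pool and 5 had every one below, where 7.01% and 6.61% of all probe sets did so.

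Few partner or lineage genes were called in the knockout comparison, where the share over all 17097 genes was 0.784%. None of the 5 E and ID proteins, 7 BATF3 partners, 17 BACH partner and target genes, 6 BCL6 genes, 7 ETS partners or 14 plasmacytoid dendritic cell genes were called. Cd24a, a surface protein of type 1 conventional dendritic cells and erythroid cells, fell (-2.31, limma adjusted p = 5.92e-04, 1 of 11 genes of its list), as did Dpp4, the CD26 gene (-2.33, adjusted p = 0.00777, 1 of 11). Vpreb1, of the pre-B cell receptor, rose (2.46, adjusted p = 0.00776, 1 of 12 B-lineage genes), as did Cd28, the T-cell costimulatory receptor (1.37, adjusted p = 0.0212, 1 of 10 T-lineage genes). Erythroid and megakaryocyte markers averaged 4.46 to 4.64 in knockout-labelled MDPs and 5.82 to 8.30 in wild-type MDPs, and their part in these differences was not tested.

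**Figure D2:**
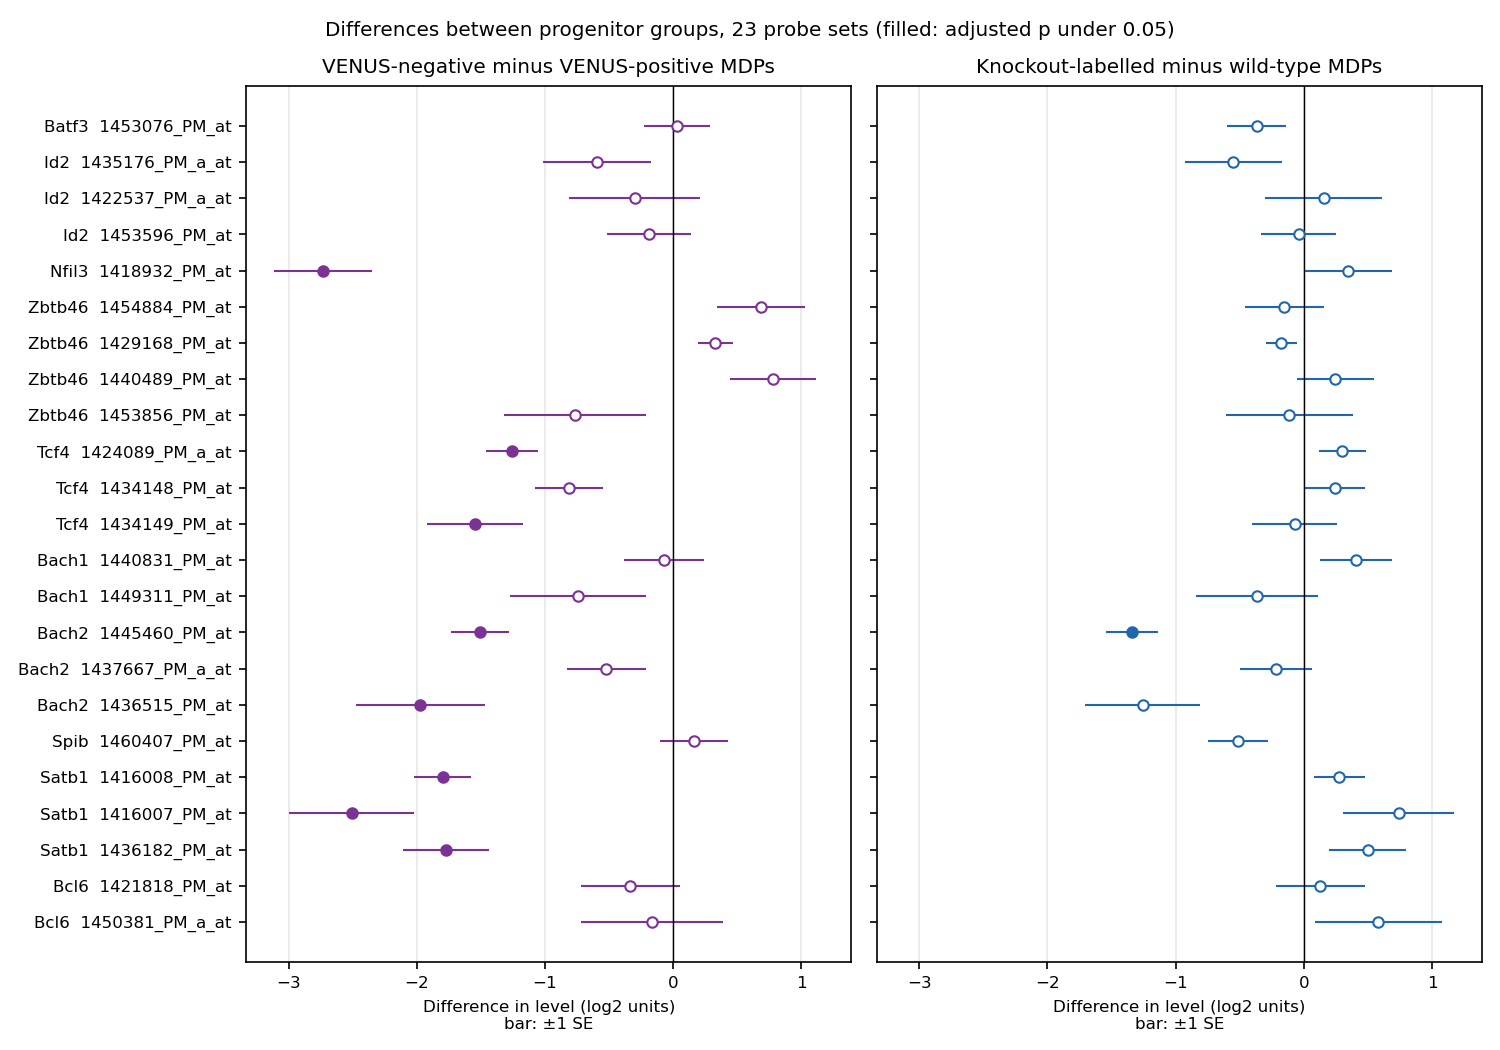
Log2 difference of every member probe set in VENUS-negative minus VENUS-positive MDPs and in knockout-labelled minus wild-type MDPs (horizontal axes), with probe sets down the page. Filled points have a limma adjusted p under 0.05 and bars are ±1 SE. Called points are 8 in the VENUS comparison, all left of 0, and 1 in the knockout comparison, the Bach2 probe set 1445460_PM_at.

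The difference between the 2 MDP comparisons was tested directly, as the VENUS difference minus the knockout difference, which share no array. For Satb1, Nfil3 and Tcf4 the VENUS difference was the lower one, with 5 of 23 member probe sets called, all lower, where 2.35% of all probe sets were called, 1.22% higher and 1.13% lower. Satb1 1416008_PM_at gave -2.08 ± 0.30 (limma, adjusted p = 0.00128), 1416007_PM_at -3.25 ± 0.65 (0.0153) and 1436182_PM_at -2.27 ± 0.45 (0.0139). Nfil3 gave -3.08 ± 0.51 (0.00417) and Tcf4 1424089_PM_a_at -1.56 ± 0.27 (0.00623). In the knockout comparison itself these 5 probe sets differed by 0.28 to 0.74, none called. With only the MDP arrays in the fit, the call on Satb1 1436182_PM_at was lost (adjusted p = 0.0728). Bach2 differed from these. Its probe set 1445460_PM_at fell by 1.51 in one comparison and by 1.34 in the other, and the difference between them was -0.17 ± 0.30, with a 95% interval of -0.82 to 0.48 (adjusted p = 0.935). That interval leaves room for a difference of up to 0.82 units, so the falls are not shown to be equal. The reference groups also differed in level, with means of 7.55 in VENUS-positive and 6.68 in wild-type MDPs. The lower groups averaged 6.04 in VENUS-negative and 5.35 in knockout-labelled MDPs.

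**Figure D3:**
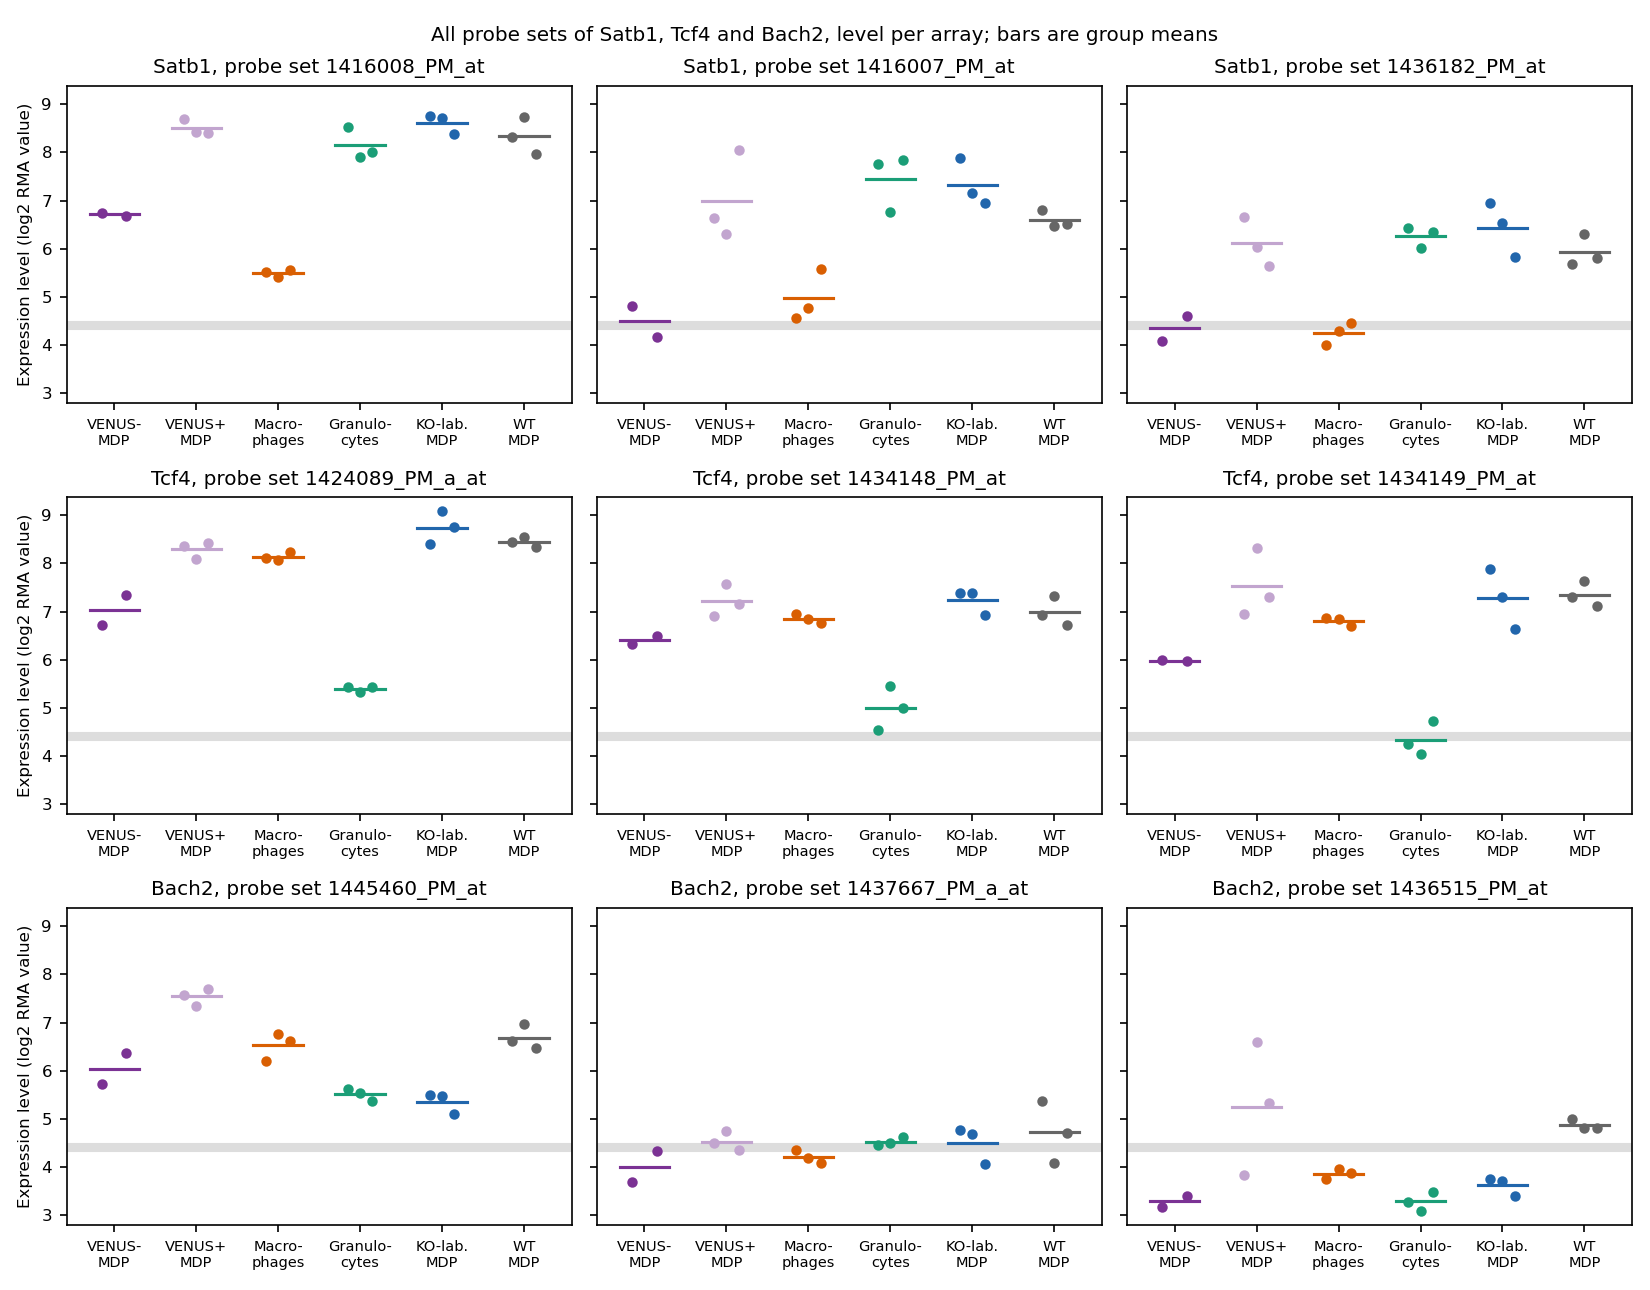
Log2 RMA level of each probe set of Satb1, Tcf4 and Bach2 (vertical axes) in every array, by group (horizontal axes), with points for pools, bars for group means and a grey band for the range of array medians. All 3 Satb1 probe sets are low in macrophages and in VENUS-negative MDPs, and all 3 Tcf4 probe sets are lowest in granulocytes, while the Bach2 probe sets differ among themselves.

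Mature spleen cells were compared with each other and with wild-type MDPs. Tcf4 was high in macrophages and low in granulocytes, Satb1 was the reverse, and Id2, Nfil3, Bach1 and Bcl6 were high in both. In macrophages minus granulocytes 9 of 23 member probe sets were called, 6 higher and 3 lower (39.1%), where 24.9% of all probe sets were, 13.6% higher and 11.3% lower. In macrophages minus wild-type MDPs 14 were called, 11 higher and 3 lower (60.9%), where 18.9% of all probe sets were, 9.61% higher and 9.28% lower. In granulocytes minus wild-type MDPs 15 were called, 10 higher and 5 lower (65.2%), where 38.4% of all probe sets were, 20.4% higher and 17.9% lower. The last 2 comparisons share the wild-type arrays. The median over all probe sets was -0.10 in macrophages minus granulocytes, 0.003 in macrophages minus wild-type MDPs and 0.11 in granulocytes minus wild-type MDPs.

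Tcf4 1424089_PM_a_at stood at 8.11, 8.08 and 8.24 in macrophages and at 5.43, 5.32 and 5.43 in granulocytes, against 8.44, 8.56 and 8.34 in wild-type MDPs. Granulocytes were far below both other groups, with hardly any spread. The difference was 2.75 ± 0.18 in macrophages minus granulocytes, 6.71-fold higher (limma, adjusted p = 1.05e-07), and -3.05 ± 0.18 in granulocytes minus wild-type MDPs, 8.29-fold lower (adjusted p = 1.56e-08). In macrophages minus wild-type MDPs it was -0.31, with a 95% interval of -0.70 to 0.09 (adjusted p = 0.324). The other Tcf4 probe sets were 1.86 and 2.47 higher in macrophages than in granulocytes, both called. Ordered by group mean, 1424089_PM_a_at stood at 8.75 ± 0.34 in knockout-labelled MDPs, 8.45 ± 0.11 in wild-type MDPs, 8.30 ± 0.18 in VENUS-positive MDPs and 8.14 ± 0.09 in macrophages (SD, n = 3 each), each overlapping with the next, then 7.04 ± 0.44 in VENUS-negative MDPs (SD, n = 2) and 5.39 ± 0.06 in granulocytes (SD, n = 3), each below all others.

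Satb1 1416008_PM_at stood at 5.51, 5.42 and 5.55 in macrophages and at 8.52, 7.91 and 8.01 in granulocytes, against 8.33, 8.74 and 7.97 in wild-type MDPs. Macrophages were the lowest group of the study and granulocytes overlapped with wild-type MDPs. The difference was -2.65 ± 0.20 in macrophages minus granulocytes, 6.29-fold lower (limma, adjusted p = 3.01e-07), and -2.85 ± 0.20 in macrophages minus wild-type MDPs, 7.23-fold lower (adjusted p = 2.40e-07). In granulocytes minus wild-type MDPs it was -0.20, with a 95% interval of -0.63 to 0.23 (adjusted p = 0.457). For 1416007_PM_at and 1436182_PM_at, macrophages minus granulocytes gave -2.49 and -2.02, and macrophages minus wild-type MDPs gave -1.63 (adjusted p = 0.0156) and -1.68 (adjusted p = 9.31e-04), all called. Of these calls, the one against wild-type MDPs on 1416007_PM_at held in 3 of the 6 fits that leave out 1 pool. In the order of its means, 1416008_PM_at overlapped between neighbours among knockout-labelled, VENUS-positive, wild-type MDPs and granulocytes, from 8.62 ± 0.21 to 8.15 ± 0.33 (SD, n = 3 each), followed by VENUS-negative MDPs at 6.71 ± 0.05 (SD, n = 2) and macrophages at 5.49 ± 0.07 (SD, n = 3).

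Bcl6, the repressor, changed most of all members between spleen cells and progenitors. Its probe set 1421818_PM_at stood at 9.41, 9.47 and 9.53 in macrophages and at 9.99, 10.27 and 10.44 in granulocytes, against 5.71, 5.20 and 6.33 in wild-type MDPs. Both spleen groups lay more than 3 units above every wild-type MDP pool. The difference was 3.72 ± 0.35 in macrophages, 13.2-fold higher (limma, adjusted p = 3.25e-06), and 4.48 ± 0.35 in granulocytes, 22.4-fold higher (adjusted p = 1.73e-07). Macrophages and granulocytes did not overlap for either Bcl6 probe set, yet the differences of -0.76 for both were not called (adjusted p = 0.127 and 0.293). Wild-type pool 3 was the highest wild-type pool for 1421818_PM_at, and without it the rises were 4.01 and 4.77. Over both probe sets and all fits that leave out 1 pool, the rises lay between 3.34 and 4.90.

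Id2, the E protein inhibitor, stood for 1435176_PM_a_at at 8.15, 7.47 and 8.15 in macrophages and at 8.92, 7.74 and 8.30 in granulocytes, against 4.23, 4.38 and 5.73 in wild-type MDPs. All spleen arrays were above all progenitor arrays, and the other MDP groups were near or under the array median. The difference was 3.14 ± 0.38 in macrophages (limma, adjusted p = 3.25e-05) and 3.54 ± 0.38 in granulocytes (adjusted p = 3.98e-06), and the probe set 1422537_PM_a_at gave 1.99 and 2.35, both called. Wild-type pool 3 was the highest wild-type pool for 1435176_PM_a_at, and without it that probe set gave 3.62 and 4.02 and 1422537_PM_a_at 2.10 and 2.46, all called. The third, 1453596_PM_at, was under the array median on 16 of 17 arrays and was called in granulocytes minus wild-type MDPs (1.16, adjusted p = 0.00574), though not with only those 6 arrays in the fit (adjusted p = 0.0620). In macrophages minus granulocytes the 3 Id2 probe sets differed by -0.40, -0.36 and -0.56, none called. The E proteins Tcf3 and Tcf12, which ID proteins bind, were read beside it. In granulocytes minus wild-type MDPs Tcf12 fell by 2.82 and Tcf3 by 1.15 on the log2 scale, and Id1 rose by 1.12. In macrophages Tcf3 fell by 1.21 and Id3 rose by 1.02.

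Nfil3 stood at 8.29, 8.42 and 8.48 in macrophages and at 9.27, 8.47 and 8.84 in granulocytes, against 6.34, 6.49 and 7.07 in wild-type MDPs. Spleen arrays were all above the progenitors, and the highest wild-type pool was pool 3. The rises were 1.77 ± 0.34, 3.40-fold (limma, adjusted p = 0.00177), and 2.23 ± 0.34, 4.68-fold (adjusted p = 1.23e-04). Without pool 3 they were 1.98 and 2.44 (adjusted p = 0.00204 and 1.91e-04). Between the spleen groups Nfil3 differed by -0.46, with a 95% interval of -1.19 to 0.27. In the order of means, granulocytes (8.86 ± 0.40) and macrophages (8.40 ± 0.10) overlapped, as did VENUS-positive, knockout-labelled and wild-type MDPs (7.23 ± 0.30, 6.98 ± 0.57 and 6.63 ± 0.38, SD, n = 3 each), and VENUS-negative MDPs came last at 4.49 ± 0.92 (SD, n = 2).

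Bach1, the heme-sensing repressor, stood for 1440831_PM_at at 9.53, 9.51 and 9.59 in macrophages and at 9.32, 9.30 and 9.39 in granulocytes, against 6.29, 6.50 and 7.50 in wild-type MDPs. The spleen pools differed from each other by less than 0.3 units in all, while the wild-type MDP pools spanned more than 1. The rises were 2.78 ± 0.28, 6.88-fold (limma, adjusted p = 6.52e-06), and 2.57 ± 0.28, 5.96-fold (adjusted p = 4.61e-06). Without wild-type pool 3, the highest, they were 3.15 and 2.94, both called. The other Bach1 probe set, 1449311_PM_at, rose by 1.78 in macrophages and 1.65 in granulocytes, and these calls held in 3 and 4 of the 6 fits that leave out 1 pool. Without wild-type pool 3 they were lost (1.57 and 1.45, adjusted p = 0.0644 and 0.0543). Its paralog Bach2 went the other way in granulocytes. Bach2 1445460_PM_at stood at 6.20, 6.77 and 6.61 in macrophages and at 5.61, 5.54 and 5.36 in granulocytes, where wild-type MDPs had 6.61, 6.97 and 6.47. Granulocytes were below both. Granulocytes minus wild-type MDPs gave -1.18 ± 0.20 (adjusted p = 3.31e-04) and macrophages minus granulocytes 1.02 ± 0.20 (adjusted p = 0.00183), while macrophages minus wild-type MDPs gave -0.16, with a 95% interval of -0.59 to 0.28. The Bach2 probe set 1436515_PM_at, dim in granulocytes, fell in them too (-1.59 ± 0.45, adjusted p = 0.0118). In macrophages it stood at 3.74, 3.94 and 3.88, against 4.99, 4.80 and 4.80 in wild-type MDPs. These groups did not overlap, unlike those of 1445460_PM_at, and the difference of -1.01 ± 0.45 was not called (adjusted p = 0.151). Among the 17 BACH partner and target genes, 7 rose and 4 fell in granulocytes and 4 rose and 2 fell in macrophages against wild-type MDPs, where 43.8% and 22.4% of all genes were called. Hmox1, the heme oxygenase gene, was the largest riser of that list in both (2.85 and 3.19).

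Batf3 stood at 5.39, 6.11 and 5.87 in macrophages and at 4.08, 5.12 and 4.64 in granulocytes, against 4.53, 4.48 and 4.51 in wild-type MDPs. Only macrophages stood clear of the array median on all arrays. They were 1.18 ± 0.23 above granulocytes (limma, adjusted p = 0.00165) and 1.28 ± 0.23 above wild-type MDPs (adjusted p = 0.00101). Zbtb46 1429168_PM_at stood at 5.19, 5.20 and 5.29 in macrophages and at 4.60, 4.88 and 4.76 in granulocytes, against 4.27, 4.27 and 4.61 in wild-type MDPs. Macrophages were above every other array for this probe set. They were 0.48 ± 0.12 above granulocytes (adjusted p = 0.00950) and 0.84 ± 0.12 above wild-type MDPs (adjusted p = 1.69e-04). The Zbtb46 probe sets 1454884_PM_at and 1440489_PM_at rose in macrophages by 0.99 and 0.98 (adjusted p = 0.0361 and 0.0335), but were called in 1 and 2 of the 6 fits that leave out 1 pool. In granulocytes 1429168_PM_at and 1440489_PM_at rose by 0.36 and 0.84 against wild-type MDPs (adjusted p = 0.0310 and 0.0405), called in 2 and 1 of such fits. Both calls were lost when arrays were centred on their medians (adjusted p = 0.0950 and 0.0664), after quantile normalization (0.0510 and 0.0615) and with only those 6 arrays in the fit (0.146 and 0.0644). Spib stood at 5.73, 5.65 and 5.63 in macrophages, above all MDP arrays, and the difference of 0.59 ± 0.23 from wild-type MDPs was not called (adjusted p = 0.102).

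**Figure D4:**
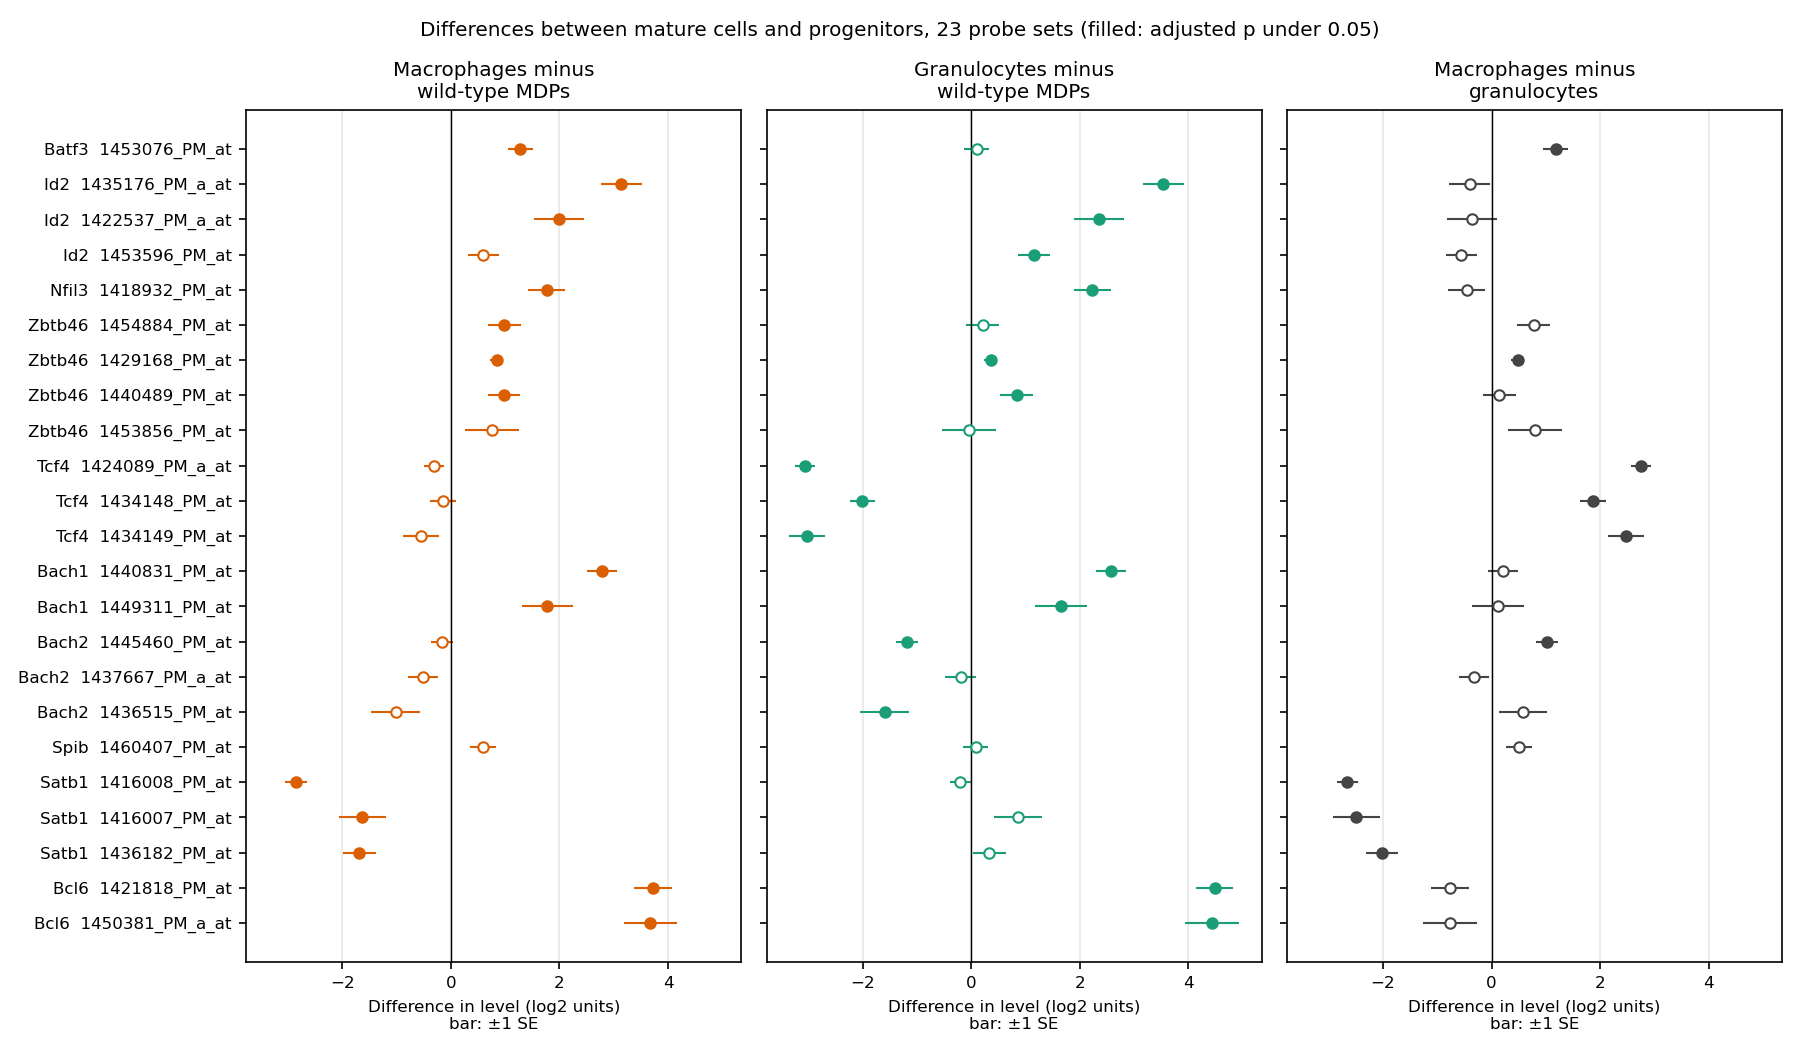
Log2 difference of every member probe set in macrophages minus granulocytes, macrophages minus wild-type MDPs and granulocytes minus wild-type MDPs (horizontal axes), with probe sets down the page. Filled points have a limma adjusted p under 0.05 and bars are ±1 SE. The Tcf4 probe sets lie right of 0 and the Satb1 probe sets left of 0 in macrophages minus granulocytes, and the Bcl6 probe sets lie near 4 against wild-type MDPs.

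Genes of dendritic cells in general were high in the sorted macrophages against both other groups. Those of type 2 conventional dendritic cells were high mainly against wild-type MDPs, and lists of the type 1 and plasmacytoid kinds were mixed. Of 11 genes of dendritic cells in general and MHC class II, 10 were higher in macrophages than in granulocytes and 0 lower, with a median of 3.06 against -0.09 over all genes, where 29.6% of genes were called. In macrophages minus wild-type MDPs 22.4% of all genes were called. There 9 of these 11 rose, among them Cd74, the MHC class II invariant chain (6.60), H2-Eb1 (5.60) and Itgax (4.53). In granulocytes minus wild-type MDPs, Itgax (3.93), Cd74 (3.61), H2-Aa (2.37), H2-Eb1 (2.36) and H2-Ab1 (2.14) also rose. Flt3 (-4.49), Dpp4 (-4.02) and Kmo (-1.26) fell there, where 43.8% of all genes were called. Itgax was not called between macrophages and granulocytes (0.60). In macrophages minus wild-type MDPs, 6 of 9 genes of type 2 conventional dendritic cells rose, led by Cd209a (5.35). Against granulocytes Klf4 (5.04), Cd209a (4.89) and Irf4 (1.88) were higher, Notch2 was lower (-0.67) and the rest were not called. Granulocytes also exceeded wild-type MDPs in Notch2 (2.73), Sirpa (1.68) and Relb (1.14), while Klf4 fell in them (-2.51). Of 11 genes of type 1 conventional dendritic cells, 2 rose in macrophages against wild-type MDPs, the receptor genes Btla (1.47) and Tlr3 (1.33). Cd24a fell (-4.57), and the share called was near the 22.4% of all genes. Against granulocytes 2 of the 11 were higher, Btla (2.85) and Snx22 (1.74), and 2 were lower, Cd24a (-5.11) and Ly75 (-3.43), which encodes the receptor DEC-205. Of 14 genes of plasmacytoid dendritic cells, 5 rose and 4 fell against wild-type MDPs. The risers were Cd300c2 (4.22), Irf7 (3.32), Tlr7 (2.92), Lair1 (2.65) and Tlr9 (1.26), and Atp1b1 (-1.10), Dntt (-1.05), Ptprs (-1.02) and Klk1 (-0.86) were lower. Against granulocytes 4 of the 14 were higher and 1 lower. The mean of 7 conventional dendritic cell markers was 6.64 to 6.89 in macrophages and 4.16 to 4.82 in granulocytes, although the sort took CD11c-negative cells, and its part in the Batf3, Zbtb46 and Tcf4 differences was not tested. The mean of 9 NK cell markers was 4.84 to 5.10 in macrophages and 6.54 to 7.28 in granulocytes, against 4.37 to 5.41 in wild-type MDPs, and its part in the Id2 and Nfil3 levels of granulocytes, both known from NK cells, was not tested. Of 7 BATF3 partners, Irf4 (2.48) and Batf (1.51) rose and Jun fell by 2.28 on the log2 scale in macrophages against wild-type MDPs.

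Across the 17 arrays, probe sets of 1 gene did not always run together. The correlation between probe sets was 0.97 for Bcl6, 0.91 to 0.95 for Tcf4, 0.81 to 0.92 for Satb1, 0.77 for Bach1 and 0.56 to 0.92 for Id2, and 0.07 to 0.71 for Bach2 and 0.14 to 0.74 for Zbtb46. The Bach2 and Zbtb46 results therefore hold for the probe set named. Between the brightest probe sets of different members, Id2 and Bcl6 correlated at 0.97, Bach1 and Bcl6 at 0.96 and Id2 and Bach1 at 0.95, while Batf3 and Satb1 correlated at -0.83. The 2 named genes most like each member, by Pearson correlation over the same 17 arrays among genes whose group means span at least 1 unit, included Ifitm6 (0.99) and Fgr (0.98) for Id2, Ptprc (0.98) and Btg1 (0.98) for Bcl6, Coro1a (0.97) and Cd53 (0.96) for Nfil3 and Cytip (0.97) and Ptprc (0.97) for Bach1. Fkbp1a (0.97) and Il6st (0.95) were most like Tcf4, Cxcl9 (0.96) and Tbc1d9 (0.95) most like Batf3, Mef2d (0.92) and BC064078 (0.88) most like Bach2, and Gng12 (0.91) and Hvcn1 (0.90) most like Satb1. The nearest genes were looser for Spib (C9orf72, 0.89, and Adgre1, 0.85) and Zbtb46 (Col4a1, 0.87, and Fbxo4, 0.83). These arrays share groups, so the values describe differences between groups and are no test.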

How the data were processed

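RNA of 17 pools of sorted mouse cells was hybridised to Affymetrix perfect-match arrays. The authors deposited log2 expression values made with Affymetrix Expression Console and RMA, per the submitters' processing notes, which subtracts background, quantile-normalizes arrays and summarises the probes of a probe set. The sources used here name no versions and do not say which arrays entered RMA together. Values ran from 1.69 to 13.47, and 0 pairs of arrays were identical. The number of arrays limits the precision, and nothing says that pools share mice.

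Symbols came from the platform annotation (28898 probe sets with 1 symbol, 551 with several, 15588 with none), of which 28689 matched a RefSeq table by Entrez identifier. All 45037 probe sets were fitted with limma 3.58.1 in R 4.3.3 in 1 model of 6 group means (11 residual degrees of freedom, prior 2.98), with two-sided p-values adjusted by Benjamini-Hochberg and called under 0.05. The rule names every member probe set. Of 219 listed partner, lineage and marker entries, 188 were measured. No filter was set on low values, and 19 of 23 member probe sets averaged above the median of all values. Levels of different probe sets were compared only to pick the brightest of a gene and to call a level dim. Marker means average them over genes. Promoters on chromosome 18, and with them those of Tcf4, were left out of the promoter search and the motif shares. The fitting step was tested on simulated data. Alternatives were 1 probe set a gene, compared arrays only, and compared arrays only with the pool number as a block. Further ones were a filter on dim probe sets, trended robust eBayes, median centring, quantile normalization and leaving out each pool. The members and lists were chosen with earlier results of these data known. Dendritic cell samples named in the design were not analysed here.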

Additional observations from a re-analysis of the deposited data

Results flagged for a closer look

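The difference between the MDP comparisons, the VENUS difference minus the knockout difference, passed the limma test for 5 probe sets of 3 genes, each of which fell in VENUS-negative MDPs and did not pass in knockout-labelled MDPs. The value was -3.08 for Nfil3 and -1.56 for Tcf4 1424089_PM_a_at. For Satb1 it was -2.08 (1416008_PM_at), -3.25 (1416007_PM_at) and -2.27 (1436182_PM_at), all in log2 units. Nfil3, Tcf4 1424089_PM_a_at and Satb1 1416008_PM_at were called in all 11 fits that leave out 1 pool, and the other Satb1 probe sets in 10 of 11 each. Erythroid, mast cell and monocyte marker levels moved with the VENUS groups, and their part in these values was not tested. No group held enough arrays for a search for single outlying arrays.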

How the results depend on the processing

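Of 1784 member results recomputed under the alternatives, 1695 kept their direction if called and their side of the threshold, 70 lost a call, 19 gained one and 0 reversed. With 1 probe set a gene the array-wide calls were 155 (knockout), 1003 (VENUS), 5337 (macrophages minus granulocytes), 4038 (macrophages minus wild-type MDPs), 7720 (granulocytes minus wild-type MDPs) and 615 (difference of differences), against 259, 1998, 11214, 8511, 17289 and 1059, because fewer features were tested. Genes of the set called were then 4, 4, 7, 6 and 3 in the last 5 of these. With only the arrays compared, the knockout comparison had 46 calls and 0 of 23 member probe sets (4 at an unadjusted p under 0.05), the VENUS comparison 536 and 1, and the difference of differences 673. Macrophages minus granulocytes then had 10881 calls and 13 member probe sets, against 9 in the main fit. Macrophages minus wild-type MDPs had 11216 and 17, against 14, and granulocytes minus wild-type MDPs 13862 and 12, against 15. Fewer arrays, of the compared groups alone, then estimate the spread, and the part of each in these changes was not tested. The fit with pool number as a block (replicate block) also held only the arrays compared. The knockout comparison then had 2 calls and 0 member probe sets (4 of these and 4038 of all probe sets at an unadjusted p under 0.05). The VENUS comparison had 0 and 0 (10 of 23 member probe sets and 5182 of all), and the difference of differences 204 and 2. Macrophages minus granulocytes had 9377 and 11, macrophages minus wild-type MDPs 10630 and 18, and granulocytes minus wild-type MDPs 12227 and 14. Same-numbered pools correlated in their deviations at -0.07 to 0.12, and 2 of 6 samples correlated best with their own number in each comparison of 3 pairs, so the numbers were not taken as pairs. Leaving out 1 pool gave 5 to 8 called member probe sets in the VENUS comparison. Depth is not defined for arrays, and 4 of 23 member probe sets averaged under the median of all values (Id2 1453596_PM_at, Zbtb46 1453856_PM_at and 1440489_PM_at, Bach2 1436515_PM_at), though Bach2 1436515_PM_at was above it on some MDP arrays.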
